A study of Mus musculus with 8 samples.

Results

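SR proteins, heterogeneous nuclear ribonucleoproteins (hnRNPs) and the protein subunits of small nuclear ribonucleoproteins (snRNPs) were followed at the mRNA level in mouse dermal fibroblasts after transfection of a synthetic miR-127-3p, a microRNA. The genes were taken by symbol alone: Srsf with a number, Hnrnp with any letters or digits, Snrp with a letter from a to g, and Sf3a or Sf3b with a number. No measured value entered this rule, but the members were chosen with earlier results of these data known. It gave 51 genes, made up of 11 SR protein genes, 20 hnRNP genes, 11 Snrp genes and 9 Sf3 genes. All 51 had at least 1 probe on the array, and 49 were bright enough to be tested, among 17093 features tested in all. Srsf12 and Hnrnph3 were not well above background on enough arrays and were not tested. The SR protein and hnRNP genes (31 genes, 29 tested) are called splicing regulators below, and the Snrp and Sf3 genes (20 genes, all tested) core snRNP proteins.

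The study compared 4 cultures transfected with miR-127-3p mimic oligonucleotides (arrays 2, 4, 5 and 7) with 4 transfected with control oligonucleotides (arrays 1, 3, 6 and 8). Both kinds of culture were dermal cells of newborn C57BL/6 mice, released from skin with dispase and collagenase and grown in serum, so the groups share strain, age, tissue and medium. A mimic is a short synthetic RNA that acts in place of the mature microRNA. The series title ties miR-127-3p to senescence of myofibroblasts, and the comparison asks what the mimic changes in mRNA levels. The sequence of the control oligonucleotides, the dose and the time after transfection are not given in the sources used here. The treatment labels of control arrays 3 and 6 name both treatments, while their titles name control. They were grouped by title, and results for the members are also given without them. The labels do not say that the 4 samples of a group came from separate animals or separate cell isolations, so each p measures the spread between these samples, which may be technical.

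Removal of introns needs the spliceosome, which is built from snRNPs, each a small nuclear RNA wrapped in proteins. The Sm proteins form a ring around the RNA, and the SF3a and SF3b complexes help the U2 snRNP to bind the branch point near the 3′ end of the intron. SR proteins carry a domain rich in arginine and serine, bind exons and help to recruit the spliceosome, while many hnRNPs bind the same transcripts and favour skipping of an exon. Several SR protein and hnRNP genes hold poison exons, whose inclusion sends the transcript to decay, and so adjust their own mRNA levels. Core snRNP proteins are parts of the snRNPs themselves, while SR proteins and hnRNPs act on particular exons.

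The transfected microRNA is encoded in the imprinted Dlk1-Dio3 domain of mouse chromosome 12. Its mature sequence is printed because it is the oligonucleotide that sets the mimic cultures apart from the controls. The sequence and position are RefSeq's, on the plus strand at chr12:109592888-109592909 of build GRCm38.p6, 22 bases long. Capitals mark the seed, bases 2 to 8 counted from the 5′ end, which pairs with target transcripts.
mmu-miR-127-3p: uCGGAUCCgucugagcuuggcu
Target sites in the 51 mRNAs were not searched for here, since no transcript sequences were used.

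Each array read 1 sample in 1 dye, and levels below are log2 processed intensities minus the array's own 75th percentile, so that 0 stands for that percentile. A level is compared only with the same probe on other arrays. The number of probes well above background was 20756 to 23472 per array. Pearson correlations over the features tested were 0.985 to 0.994 among mimic arrays, 0.984 to 0.992 among control arrays and 0.960 to 0.981 between the groups. By this measure no array stood apart from its group. All tested members were well above background on all 8 arrays and none was saturated. The number of arrays limits the precision.

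All 12 fibroblast markers looked for were bright enough to test, among them the collagen genes Col1a1 and Col1a2, Vim and Pdgfrb, so the cultures carried the markers of their label. Of the fibroblast markers 1 rose with the mimic (Dcn, 1.18), 2 fell (Pdgfra, -0.97, and Col3a1, -1.07) and 9 did not pass the test. The call of Dcn was lost without control array 1 or mimic array 2, 4 or 7, and that of Col3a1 without any 1 array other than mimic array 2 or control array 3 (adjusted p from 0.0505 to 0.0823). Macrophage and leukocyte markers moved with the treatment: 10 of 11 were tested, 9 of them rose, and the median of the list on the mimic arrays was 0.53 to 1.54 above the control mean, against -0.04 to 0.09 on the control arrays. Mimic array 5 was the lowest mimic array for every tested marker of this list other than Itgam. The leukocyte marker Ptprc was not tested for lack of signal. Of the markers of other cells, 4 of 8 keratinocyte and 3 of 6 endothelial markers were tested. So were 5 of 7 skeletal muscle markers and 5 of 7 melanocyte and Schwann cell markers. The tested markers included Krt5, Krt14, Trp63, Pecam1, Kdr, Myog and Sox10, while Cdh1, Epcam, Cdh5, Tie1, Myod1, Pax7 and Tyr were too dim to test. Of those tested, 1 keratinocyte marker (Krt10, 0.36), 1 endothelial marker (Vwf, 1.97, and 0.92 with normexp), 1 melanocyte marker (Pmel, 1.10) and 0 muscle markers rose, and none fell. On the control arrays Vwf was well above background on 2 and Pmel on 3. With the slide column as a block, limma lost the calls of Krt10 (adjusted p = 0.0540), Dcn (adjusted p = 0.0573) and Pmel (adjusted p = 0.0831). The call of Pmel was also lost with normexp (0.50, adjusted p = 0.0755) and without control array 1, 6 or 8 or mimic array 2, 4 or 7. With no filter on dim probes the calls of Dcn, Col3a1, Krt10 and Pmel were lost. Without control arrays 3 and 6, limma lost the calls of Dcn (0.86, adjusted p = 0.101), Krt10 (0.30, adjusted p = 0.0519) and Pmel (1.41, adjusted p = 0.053). The mimic arrays had list medians of 0.22 to 0.70 for keratinocytes, 0.18 to 0.29 for endothelium, -1.85 to -0.15 for muscle and 0.08 to 1.20 for melanocytes and Schwann cells. The control arrays had -0.32 to 0.31, -0.23 to 0.25, -1.31 to 0.94 and -0.63 to 0.26 for the same lists. In these bulk cultures, fewer cells of a type and less RNA per cell cannot be told apart. The part of these other cells in the results below was not tested.

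Most splicing factor mRNAs were lower in cells that received the mimic. By limma with Benjamini-Hochberg adjustment over all features and a threshold of 0.05, 36 of the 49 tested members fell, 1 rose and 12 did not pass. Of all 17093 features 34.2% passed, 18.3% as lower with the mimic and 15.9% as higher. Of the tested members 73.5% were called lower; the members as a list were not tested. The fitted difference was below 0 for 47 of 49 members, and its median was -0.45 on the log2 scale, beside 0.02 over all features. In size the falls were modest. By its brightest probe no member fell by 2-fold or more, which 3.88% of all features did, and the members' differences ran from -0.85 to 0.36. In 36 members every mimic array was lower than every control array, and in 1 member every mimic array was higher. Over all features 19% did not overlap in the lower direction and 15.1% in the higher direction, 34.2% together. The only member that rose was Sf3a2.

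**Figure D1:**
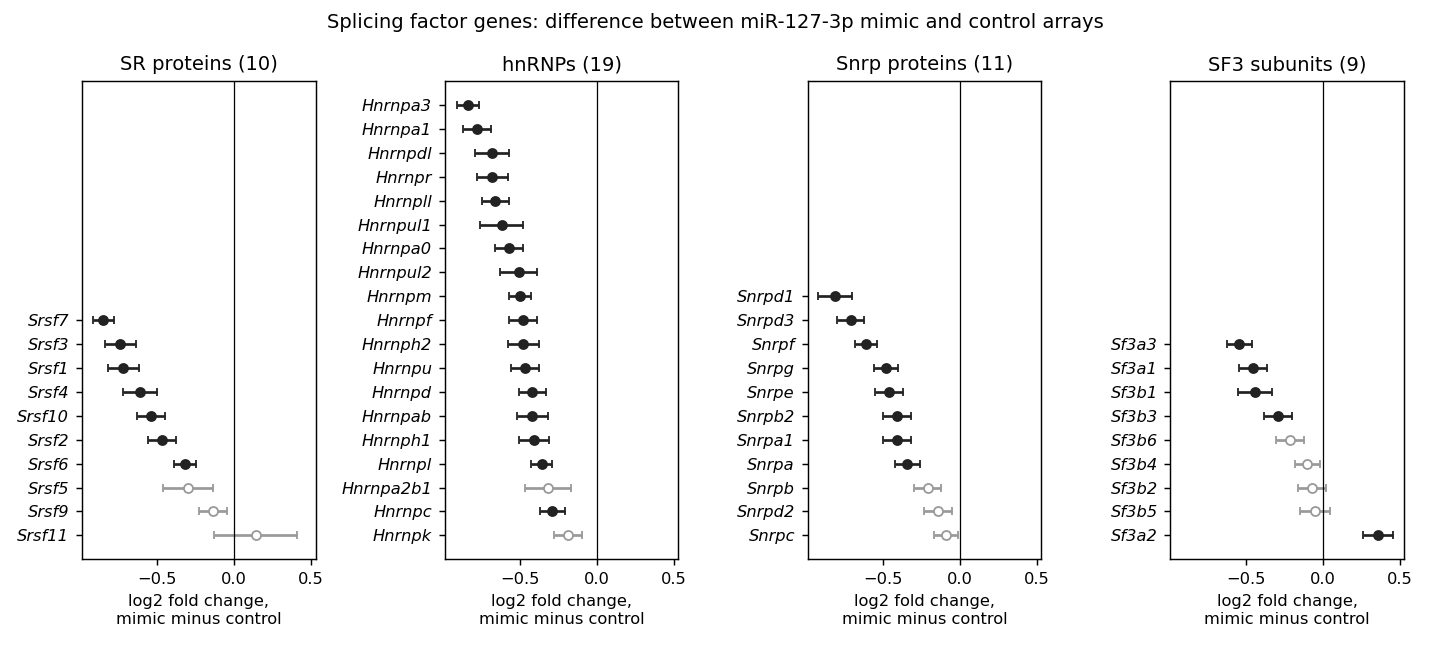
Log2 fold change (mimic minus control) of the 49 tested members, 1 panel per family, with the standard error of the limma fit as bars. Filled points passed the adjusted threshold and open points did not. Filled points lie left of 0 for 36 genes and right of 0 for Sf3a2 alone.

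Among the SR proteins, 7 of 10 tested genes fell and none rose, with a median difference of -0.50. The largest fall was that of Srsf7, which with Srsf3 also serves as an adaptor for mRNA export. Srsf7 had levels of 3.68, 3.79, 3.70 and 3.76 on the mimic arrays, against 4.67, 4.54, 4.59 and 4.53 on the control arrays. Its groups lay 0.74 apart at the nearest, and it fell by 0.85 (SE 0.07, adjusted p = 7.18e-05), or 1.80-fold. Srsf3 had 3.96, 4.02, 4.03 and 4.06 with the mimic and 4.51, 4.81, 4.89 and 4.80 with control oligonucleotides. Control array 1 was the lowest of its group but stayed above every mimic array, and the fall was 0.74 (SE 0.10, adjusted p = 0.000683). Srsf1, the founding SR protein and a selector of 5′ splice sites, had 2.91, 2.65, 3.03 and 2.79 on mimic arrays and 3.42, 3.54, 3.61 and 3.69 on control arrays. It fell by 0.72 (SE 0.10, adjusted p = 0.00121), with no overlap.

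The next SR protein genes fell by smaller amounts. Srsf4, a large SR protein, had 2.16, 1.90, 1.83 and 1.77 with the mimic and 2.57, 2.36, 2.56 and 2.60 with control oligonucleotides, a fall of 0.61 (SE 0.11, adjusted p = 0.00314). Srsf10, which acts as a splicing repressor when its SR domain loses its phosphates, had 1.20, 1.23, 1.37 and 1.10 on mimic arrays and 1.85, 1.72, 1.68 and 1.81 on control arrays, a fall of 0.54 (SE 0.09, adjusted p = 0.00200). In both genes the groups were apart, most narrowly in Srsf4, where mimic array 2 came within 0.20 of control array 3. Srsf2, a nuclear speckle protein that binds exonic enhancers, had 1.92, 1.97, 2.12 and 1.88 with the mimic and 2.28, 2.49, 2.59 and 2.42 with control, and fell by 0.47 (SE 0.09, adjusted p = 0.00583). Srsf6 moved least among the called SR protein genes, with 3.66, 3.54, 3.59 and 3.53 on mimic arrays against 3.94, 3.83, 3.86 and 3.98 on control arrays and a fall of 0.32 (SE 0.07, adjusted p = 0.0108). The groups of both genes did not overlap.

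The 3 SR protein genes that did not pass were Srsf5, Srsf9 and Srsf11. Srsf9 had 4.64, 4.61, 4.88 and 4.68 with the mimic and 4.74, 4.98, 4.79 and 4.83 with control, and its groups overlapped (-0.14, SE 0.09, adjusted p = 0.289). Srsf11, an SR-like protein that binds U2AF, had the widest spread on mimic arrays of all tested members (SD 0.63). It had 4.21, 3.81, 3.02 and 2.90 on mimic arrays 2, 4, 5 and 7, against 3.34, 3.34, 3.29 and 3.40 on the control arrays. The control arrays lay within 0.11 of each other, while 2 mimic arrays were above all controls and 2 were below them, so that the mean difference of 0.14 (SE 0.27, adjusted p = 0.716) describes no array. Without mimic array 2 it was -0.10. Srsf5 had 4.13, 4.20, 4.72 and 4.72 on mimic arrays and 4.63, 4.77, 4.92 and 4.64 on control arrays (-0.30, SE 0.16, adjusted p = 0.181), with mimic arrays 2 and 4 below all controls and the other 2 within their range.

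**Figure D2:**
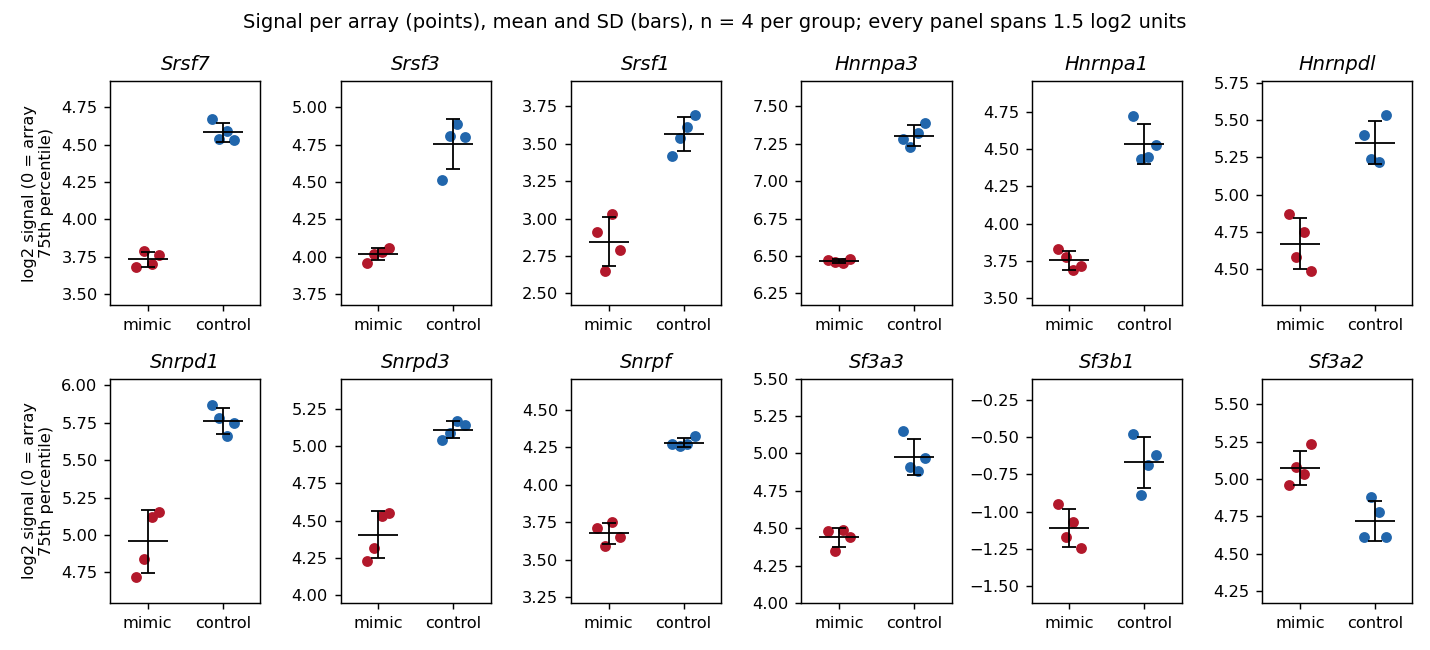
Log2 level on each array (points) with the group mean and SD (bars, n = 4) for 12 called genes: the 3 with the largest fall among SR proteins, hnRNPs and Snrp genes, and Sf3a3, Sf3b1 and Sf3a2. Every panel spans 1.5 log2 units. In 11 panels every mimic array lies below every control array, and in the panel of Sf3a2 every mimic array lies above.

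Of the 19 hnRNP genes tested, 17 fell (89.5%) and none rose, all 19 differences were below 0, and their median was -0.48. Hnrnpa3 and Hnrnpa1, close relatives that bind exonic and intronic silencers and favour exon skipping, fell most. Hnrnpa3 had 6.47, 6.46, 6.45 and 6.48 on the mimic arrays and 7.28, 7.23, 7.32 and 7.39 on the control arrays, so that the mimic arrays agreed within 0.03 and the difference was -0.84 (SE 0.07, adjusted p = 7.05e-05), or 1.79-fold lower. Hnrnpa1 had 3.83, 3.78, 3.69 and 3.72 with the mimic and 4.72, 4.43, 4.45 and 4.53 with control oligonucleotides, a fall of 0.78 (SE 0.09, adjusted p = 0.000333). Neither gene's groups overlapped.

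Hnrnpdl, a relative of the AU-rich element binding protein Hnrnpd, had 4.87, 4.58, 4.75 and 4.49 on mimic arrays against 5.40, 5.24, 5.22 and 5.53 on control arrays (-0.68, SE 0.11, adjusted p = 0.00247). Hnrnpr, known for a part in mRNA transport in neurons, had 3.36, 3.42, 3.37 and 3.24 with the mimic and 4.26, 3.88, 4.01 and 3.94 with control (-0.68, SE 0.10, adjusted p = 0.00134). Both fell on every mimic array relative to every control array. Hnrnpll, best known for alternative splicing of Ptprc in T cells, had 3.17, 3.15, 3.40 and 3.08 on mimic arrays and 3.93, 3.80, 3.82 and 3.89 on control arrays (-0.66, SE 0.09, adjusted p = 0.000835). Hnrnpul1, an RNA-binding protein that also takes part in DNA double-strand break repair, had 1.18, 0.75, 1.45 and 0.96 with the mimic and 1.69, 1.73, 1.63 and 1.77 with control (-0.62, SE 0.14, adjusted p = 0.0109). Hnrnpul1 spread more on the mimic arrays (SD 0.30) than on the controls (SD 0.06), and mimic array 5 lay nearest to the controls.

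Between these and the weakest call, 10 more hnRNP genes fell by 0.36 to 0.57, none with overlapping groups. They were Hnrnpa0 (-0.57), Hnrnpul2 (-0.51), Hnrnpm (-0.50), Hnrnpf (-0.48), Hnrnph2 (-0.48), Hnrnpu (-0.47), Hnrnpab (-0.42), Hnrnpd (-0.42), Hnrnph1 (-0.41) and Hnrnpl (-0.36), with adjusted p from 0.00114 for Hnrnpm to 0.0145 for Hnrnpul2. The group holds readers of very different RNA elements, such as Hnrnpf, Hnrnph1 and Hnrnph2 on runs of G, Hnrnpl on CA repeats and Hnrnpu on nuclear scaffold RNA. The smallest fall was that of Hnrnpc, which packs nascent transcripts and binds uridine tracts. It had 5.93, 5.95, 5.84 and 5.94 on mimic arrays and 6.12, 6.17, 6.33 and 6.22 on control arrays (-0.29, SE 0.08, adjusted p = 0.0189), a call that was lost without control array 6. Hnrnpk, a poly-C binding protein, did not pass, with 3.55, 3.45, 3.70 and 3.58 with the mimic and 3.60, 3.72, 3.92 and 3.79 with control (-0.19, SE 0.09, adjusted p = 0.158). Hnrnpa2b1, a relative of Hnrnpa1 that binds RNA transport signals, did not pass either, with 4.69, 4.54, 5.26 and 4.83 on mimic arrays and 5.14, 5.26, 5.01 and 5.20 on control arrays (-0.32, SE 0.15, adjusted p = 0.132). Mimic array 5 alone reached the level of the controls, and without it the difference was -0.47 and passed (adjusted p = 0.0121).

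The Snrp genes fell in 8 of 11 cases and none rose, with a median difference of -0.41. Of the 7 Sm ring genes tested (Snrpb, Snrpd1, Snrpd2, Snrpd3, Snrpe, Snrpf and Snrpg), 5 fell and their median was -0.48. Snrpd1 had 4.72, 4.84, 5.12 and 5.15 on the mimic arrays and 5.87, 5.78, 5.66 and 5.75 on the control arrays (-0.81, SE 0.11, adjusted p = 0.00108). Snrpd3, of the same ring, had 4.23, 4.32, 4.53 and 4.55 with the mimic and 5.04, 5.09, 5.17 and 5.14 with control (-0.71, SE 0.09, adjusted p = 0.000825). In both genes mimic arrays 2 and 4 were lower than mimic arrays 5 and 7, and all were below the controls. Snrpf had 3.71, 3.59, 3.75 and 3.65 on mimic arrays and 4.27, 4.26, 4.27 and 4.33 on control arrays (-0.61, SE 0.07, adjusted p = 0.000407). Snrpg, at 6.05, 6.23, 6.09 and 6.25 with the mimic and 6.63, 6.63, 6.72 and 6.55 with control, fell by 0.48 (SE 0.08, adjusted p = 0.00268). Snrpe, at 5.61, 5.81, 5.60 and 5.80 with the mimic and 6.24, 6.11, 6.25 and 6.04 with control, fell by 0.46 (SE 0.09, adjusted p = 0.00542).

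Subunits of the same ring thus gave different values. Snrpb had 3.91, 3.98, 3.93 and 3.95 on mimic arrays and 3.93, 4.26, 4.24 and 4.18 on control arrays (-0.21, SE 0.09, adjusted p = 0.110). Control array 1 was at the level of the mimic arrays, and without it Snrpb was at -0.28 and passed (adjusted p = 0.0276). Snrpd2 had 6.33, 6.48, 6.44 and 6.51 with the mimic and 6.55, 6.70, 6.65 and 6.42 with control, with overlapping groups (-0.14, SE 0.09, adjusted p = 0.244). Whether Snrpd2 differs from Snrpd1 or Snrpd3 in its response was not tested.

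The other 4 Snrp genes encode proteins of the U1 and U2 snRNPs, and 3 of them fell. Snrpa1, which with Snrpb2 binds U2 small nuclear RNA, had 3.10, 3.21, 3.12 and 3.27 on mimic arrays and 3.76, 3.50, 3.56 and 3.52 on control arrays (-0.41, SE 0.09, adjusted p = 0.00738). Snrpb2 moved by the same amount (-0.41, SE 0.09, adjusted p = 0.00994). Snrpa, which binds a stem loop of U1 small nuclear RNA, fell least of the called Snrp genes, with 3.74, 3.58, 3.60 and 3.55 with the mimic and 3.83, 3.97, 4.02 and 4.02 with control (-0.34, SE 0.08, adjusted p = 0.0121). Snrpc, the U1 protein that steadies pairing with the 5′ splice site, was nearest to 0 in the family. It had 3.13, 3.18, 3.29 and 3.14 on mimic arrays and 3.45, 3.24, 3.22 and 3.20 on control arrays (-0.09, SE 0.08, adjusted p = 0.423), with overlapping groups.

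Of the 9 Sf3 genes tested, 4 fell (44.4%) and 1 rose, and the median was -0.21. The SF3a complex has 3 subunits, and their mRNAs moved in opposite directions. Sf3a3 had 4.48, 4.35, 4.49 and 4.44 on the mimic arrays and 5.15, 4.91, 4.88 and 4.97 on the control arrays (-0.54, SE 0.08, adjusted p = 0.00181). Sf3a1 had 2.90, 2.69, 2.85 and 2.62 with the mimic and 3.32, 3.25, 3.12 and 3.18 with control (-0.45, SE 0.09, adjusted p = 0.00584). Both fell with no overlap between groups. Sf3a2, at 4.96, 5.08, 5.03 and 5.23 on mimic arrays against 4.61, 4.88, 4.78 and 4.61 on control arrays, rose by 0.36 (SE 0.10, adjusted p = 0.0217), or 1.28-fold. The gap between its groups was 0.08 at the nearest, between mimic array 2 and control array 3. Its call was lost without control array 1 or 8 or mimic array 4 or 7, with adjusted p from 0.0549 to 0.0604 and differences from 0.30 to 0.36, still above 0.

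Of the 6 SF3b genes, which clamp the branch point helix, 2 fell, none rose and the median was -0.15. Sf3b1, the largest subunit and the target of several splicing inhibitors, had -0.95, -1.17, -1.07 and -1.24 on mimic arrays and -0.48, -0.89, -0.69 and -0.62 on control arrays (-0.44, SE 0.11, adjusted p = 0.0155). Sf3b3 had 5.66, 5.58, 5.34 and 5.55 with the mimic and 5.78, 5.80, 5.90 and 5.80 with control (-0.29, SE 0.09, adjusted p = 0.0343). The call of Sf3b3 was lost when any 1 array other than mimic array 2 was left out, so it rests on the whole set of arrays. The other 4 were Sf3b6 (-0.21, adjusted p = 0.0935), Sf3b4 (-0.10, 0.364), Sf3b2 (-0.07, 0.576) and Sf3b5, and their groups overlapped. Sf3b5, nearest to 0 of all members, had 5.29, 5.54, 5.24 and 5.43 on mimic arrays and 5.26, 5.56, 5.48 and 5.38 on control arrays (-0.05, SE 0.10, adjusted p = 0.761).

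Of the splicing regulators 24 of 29 fell (82.8%), and of the core snRNP proteins 12 of 20 (60.0%). By family the shares were 70% for SR protein and 89.5% for hnRNP genes, against 72.7% for Snrp and 44.4% for Sf3 genes. The SR protein and Snrp genes thus had similar shares. The median difference was -0.48 for the regulators (interquartile range -0.66 to -0.36) and -0.38 for the core proteins (-0.46 to -0.13). The members are not replicates of a condition, so no p is given for these shares or for the difference of 0.10 (core minus regulators) between the medians. Taken array by array relative to each gene's control mean, the core median was above the regulator median by 0.21, 0.24, 0.00 and 0.21 on mimic arrays 2, 4, 5 and 7, against 0.00, 0.04, 0.07 and -0.05 on the control arrays. The groups overlapped here, since mimic array 5 had no such gap. The difference of the medians was 0.20 without control arrays 3 and 6, and 0.16 with quantile normalization or with normexp background correction. Its lowest value over the settings tried was 0.07.

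By family the medians varied between arrays. On mimic arrays 2, 4, 5 and 7 the SR proteins stood at -0.54, -0.53, -0.36 and -0.62, the hnRNPs at -0.47, -0.60, -0.37 and -0.55, the Snrp genes at -0.48, -0.38, -0.46 and -0.38, and the Sf3 genes at -0.16, -0.21, -0.35 and -0.25. The control arrays lay between -0.06 and 0.06 in every family. SR proteins and hnRNPs had their smallest shift on mimic array 5, where the Sf3 genes had their largest. The Sf3 genes were nearest to 0 of the families on each mimic array, on array 5 by less than the spread among the control arrays. The Snrp genes, also core proteins, were nearer to 0 than both regulator families on mimic arrays 4 and 7, farther from 0 than both on array 5, and between them on array 2.

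**Figure D3:**
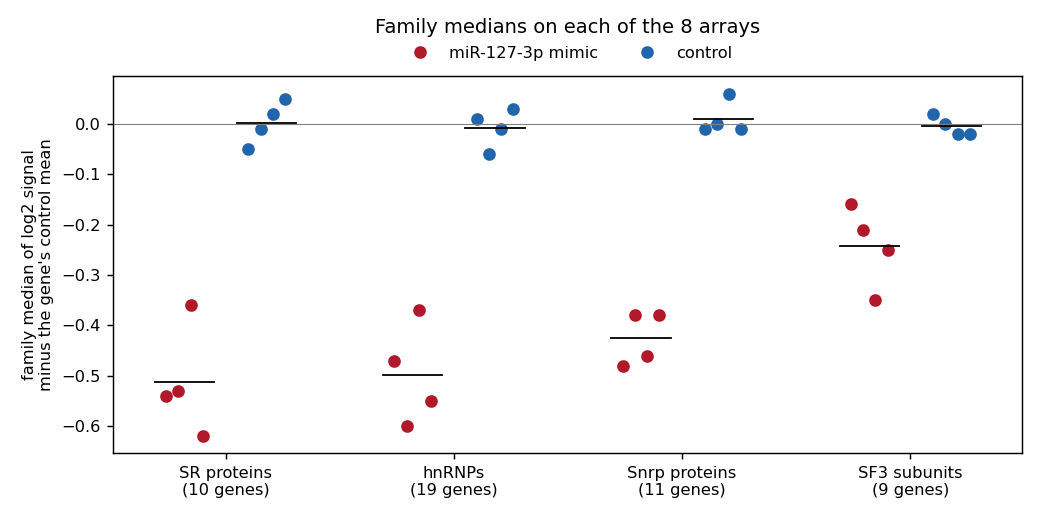
Median over each family's tested genes of the log2 level minus the gene's control mean, on each array (points), with the mean over 4 arrays (lines). All mimic arrays lie below all control arrays in each family, and the Sf3 genes are nearest to 0.

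Control arrays 3 and 6 are those whose treatment label names both treatments. Without them, 29 members fell and 1 rose, beside 13.7% of all features called lower and 13.6% higher. By family, 7 SR protein, 13 hnRNP, 6 Snrp and 3 Sf3 genes fell. The 7 calls lost were Hnrnpab, Hnrnpc, Hnrnpl, Hnrnpul1, Snrpa, Snrpb2 and Sf3b3, and Sf3a2 was higher by 0.47 (adjusted p = 0.0254).

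The arrays lay in 2 rows of 1 slide, and each row held 2 mimic and 2 control arrays. With the row as a block, 36 members fell and 1 rose, beside 17.4% of all features called lower and 15.1% higher. Each slide column held 1 mimic and 1 control array, and with the column as a block 30 members fell and none rose, beside 13% of all features called lower and 10.4% higher. The calls of Hnrnpab, Hnrnpc, Srsf6, Snrpa, Snrpb2, Sf3b3 and Sf3a2 were lost there. In each row alone, with 2 arrays against 2, limma called 5 members lower in row 1 (5.8% of all features lower, 4.49% higher) and 6 in row 2 (5.42% lower, 4.01% higher), and 0 members higher in either. The differences were below 0 in both rows for 44 of 49 members, and all 37 called members kept their sign in both. A test of the difference between rows, added after the data were seen, called 0 of 17093 features with limma (883 at unadjusted p under 0.05, 5.17%). Among the members 3 had an unadjusted p under 0.05, Srsf11, Snrpd1 and Srsf5. Srsf11 differed by -1.06 (row 2 minus row 1, SE 0.22, unadjusted p = 0.00231, adjusted p = 0.697): its mimic arrays stood at 4.21 and 3.81 in row 1 and at 3.02 and 2.90 in row 2. Srsf5 differed by 0.47 between rows (SE 0.19, adjusted p = 0.787) and Hnrnpa2b1, which did not reach that unadjusted level, by 0.53 (SE 0.24, adjusted p = 0.787).

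**Figure D4:**
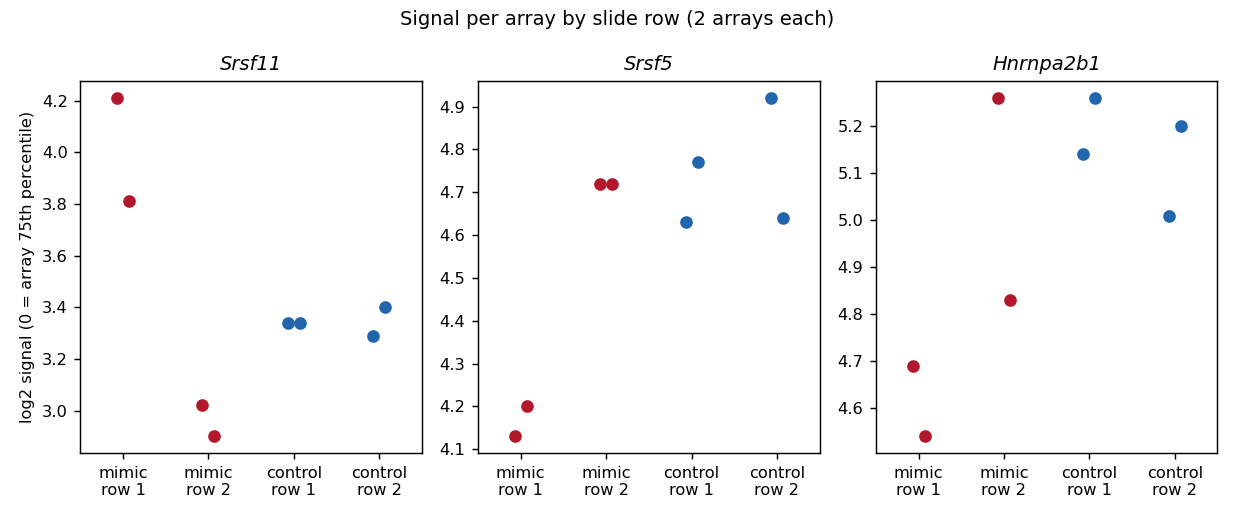
Log2 level of Srsf11, Srsf5 and Hnrnpa2b1, 3 members that did not pass the test, on each array by group and slide row (2 arrays in each). The control arrays of both rows lie together, while the mimic arrays of row 1 lie above those of row 2 in Srsf11 and below them in Srsf5 and Hnrnpa2b1.

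Many of these genes make more than 1 transcript, so the other probes of each gene were set beside the brightest. The 49 genes had 81 tested probes, of which 60 were lower and 1 higher when every probe was tested by itself, beside 18.1% of all single probes lower and 15.7% higher. Differences below 0 were seen in 77 of the 81. Of the 22 genes with 2 or more tested probes, the second brightest probe was called lower in 17 and higher in 0, and was below 0 in 20. A test of whether the 2 brightest probes of a gene respond unequally called 0 of these 22 genes with limma (4 at unadjusted p under 0.05), beside 5.86% of 2903 genes (18.5% at unadjusted p under 0.05). In most of the 22 genes both probes were named for the same transcript, so the test says little about unlike transcripts of a gene.

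The widest gap was that of Hnrnpul1, whose second probe, named for another transcript and well above background on only 4 arrays, stood at 0.01 against -0.62 for the brightest (difference -0.62, SE 0.16, adjusted p = 0.0660). Its second probe had -2.15, -2.54, -2.22 and -2.29 on mimic arrays and -2.10, -2.73, -2.17 and -2.23 on control arrays, with overlapping groups. In Hnrnpab the second probe differed by -0.85 and the brightest by -0.42 (difference 0.43, SE 0.14, adjusted p = 0.137). In Srsf6 the values were -0.61 and -0.32 (difference 0.29, SE 0.08, adjusted p = 0.0956). For both genes the weaker of the pair of changes was the one counted above. Hnrnpa3 had the most probes, 7, all below 0, from -1.79 to -0.23. Those named for another transcript than the brightest stood at -1.79 and -1.31, and the rest from -0.84 to -0.23, a difference that was not tested. The probe nearest to 0 did not pass by itself (adjusted p = 0.0778).

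**Figure D5:**
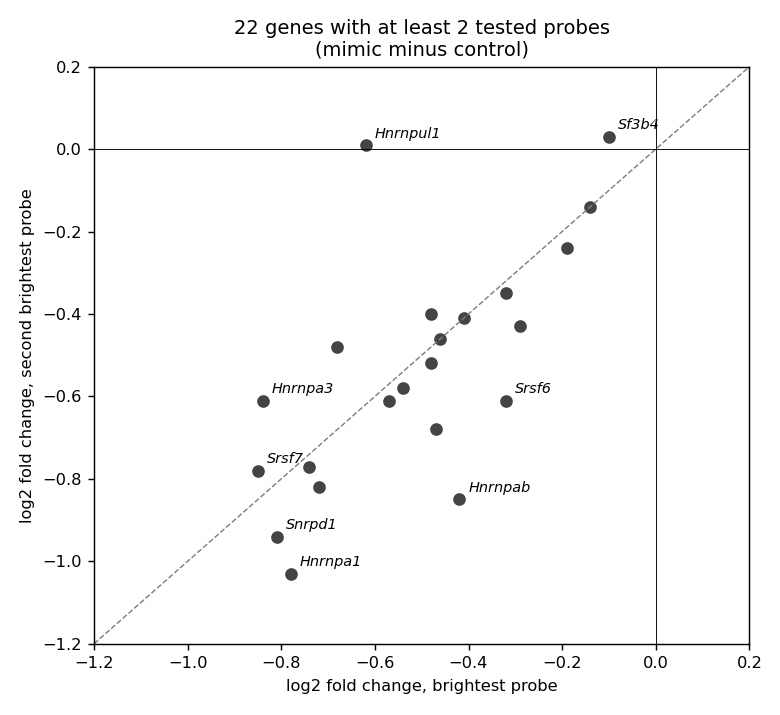
Log2 fold change (mimic minus control) of the brightest probe (horizontal axis) and of the second brightest probe (vertical axis) for the 22 members with at least 2 tested probes. The dashed line marks equal values. The second probe is below 0 in 20 genes, and Hnrnpul1 lies farthest from the line.

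Other genes of the splicing pathway were read from lists, by role, and each count stands beside the 18.3% of all features called lower and the 15.9% called higher. Among SR-related proteins and splicing coactivators 17 of 20 tested genes fell, none rose and the median was -0.38. Tra2a, an SR-like activator of exon inclusion, differed by -0.66 (adjusted p = 0.00146), with 3.96, 3.84, 4.25 and 4.02 on mimic arrays and 4.78, 4.63, 4.63 and 4.68 on control arrays. Pnn differed by -0.74 (adjusted p = 0.00187), Srrm1 by -0.55 (adjusted p = 0.00313) and Scaf11 by -0.62 (adjusted p = 0.00335). On its second probe Srrm1 did not pass (-0.35, adjusted p = 0.122). The SR protein kinases and the importins listed with them were lower in 2 of 10 cases and higher in none, with a median of -0.12, a share of calls near that of all features. The importins Tnpo1 (-0.63, adjusted p = 0.00394) and Tnpo3 (-0.52, adjusted p = 0.00448) fell. The kinases Srpk1 (-0.17, adjusted p = 0.176) and Srpk2 (-0.21, adjusted p = 0.220) did not pass.

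Other splicing regulators fell in 20 of 35 cases and rose in 2, with a median of -0.34. Mbnl3, of the muscleblind family, differed by -1.28 (adjusted p = 0.000311; -0.84 with normexp), Pcbp1, a poly-C binding protein, by -0.89 (adjusted p = 0.000310), and Fubp1 by -0.69 (adjusted p = 0.000329), whose second probe did not pass (-0.42, adjusted p = 0.0631). Tardbp, which silences cryptic exons, differed by -0.64 (adjusted p = 0.000430) on its brightest probe and by 0.03 on its second. The 2 genes that rose were Mbnl2 (0.49, adjusted p = 0.00643) and Qk (0.34, adjusted p = 0.0473), named here after their values were seen. Mbnl2 and Mbnl3 belong to 1 family and passed in opposite directions.

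Among proteins around the snRNPs, the LSm proteins, relatives of the Sm proteins that form rings on U6 small nuclear RNA and on mRNAs bound for decay, fell in 9 of 13 cases and rose in 1, with a median of -0.45. Lsm3 had 2.57, 2.73, 2.60 and 2.56 on mimic arrays and 3.64, 3.77, 3.80 and 3.71 on control arrays (-1.11, adjusted p = 3.18e-05), and Lsm6 (-0.77), Lsm2 (-0.74) and Lsm5 (-0.71) had adjusted p from 0.000141 to 0.000207. Lsm3 thus changed more than any Sm ring gene in size, a difference that was not tested. Lsm10, which replaces an Sm protein in the U7 snRNP of histone mRNA processing, rose (0.33, adjusted p = 0.0177). Proteins specific to single U snRNPs or to the tri-snRNP fell in 8 of 25 cases, with none higher and a median of -0.22. The largest of these were Snrnp25 of the minor spliceosome (-1.25, adjusted p = 0.000192), Ppih (-0.99, adjusted p = 4.63e-05), Sart3, a recycling factor of U6 (-0.61, adjusted p = 0.000837), and Snrnp40 (-0.52, adjusted p = 0.00196).

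Genes for branch point and 3′ splice site recognition fell in 7 of 15 cases and rose in 1, with a median of -0.27. U2af1, the small subunit of the factor that reads the 3′ splice site, differed by -0.85 (adjusted p = 0.000321), Rbm17 by -0.93 (adjusted p = 0.00154), Ddx39b by -0.63 (adjusted p = 0.00479) and Phf5a, an SF3b subunit under another name, by -0.50 (adjusted p = 0.00606). The Prp19 complex with the helicases and step factors fell in 4 of 19 cases and rose in 1, with a median of -0.13. Bcas2 (-0.52, adjusted p = 0.00146), Isy1 (-0.35, adjusted p = 0.00434) and Dhx16 (-0.31, adjusted p = 0.0200) fell, and Slu7, a factor of the second catalytic step, rose (0.35, adjusted p = 0.0204), with a share of lower calls near that of all features. With array medians as the scale neither Slu7 (0.34, adjusted p = 0.0608) nor Dhx16 (-0.32, adjusted p = 0.0616) passed, and Slu7 did not pass with normexp (0.23, adjusted p = 0.0871). Both limma calls were lost with the slide column as a block (adjusted p = 0.0688 for Slu7 and 0.0662 for Dhx16). Neither gene passed with no filter on dim probes. Slu7 was also lost without mimic array 4 or control array 8, and Dhx16 without control array 1 or mimic array 4 or 7 (adjusted p from 0.0522 to 0.0593). Without control arrays 3 and 6 the limma call of Slu7 was lost too (0.33, adjusted p = 0.0946). Genes for snRNP assembly by the SMN complex and the methylosome fell in 9 of 16 cases and rose in 1, with a median of -0.29. Gemin6 (-0.72), Gemin5 (-0.50), Gemin4 (-0.38) and the helicase Ddx20 (-0.56) had adjusted p from 0.000273 to 0.00357. The exon junction complex with mRNA export and decay factors fell in 11 of 23 cases and none rose, with a median of -0.33. Magoh (-0.72, adjusted p = 0.000659), Magohb (-0.63, adjusted p = 0.000733), Alyref (-0.58, adjusted p = 0.000637) and Nxt1 (-0.71, adjusted p = 0.000150) were those with the smallest p.

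Genes of cell division and of the interferon response moved with the treatment on the same arrays. All 26 tested genes of a G2/M list fell, with a median of -2.03, and the mimic arrays' medians were -2.24 to -1.81, against -0.09 to 0.11 on the control arrays. Of 32 tested genes of DNA replication 31 fell, with a median of -1.20, at -1.38 to -0.99 on mimic arrays and -0.08 to 0.06 on control arrays. Examples are Dlgap5 (-1.73), Birc5 (-2.20), Tk1 (-1.92) and Mcm5 (-1.98), with adjusted p from 1.19e-05 to 1.87e-05. Dlgap5 was at -0.98 with normexp background correction. Interferon-induced genes rose in 16 of 21 cases, with a median of 1.76, at 0.56 to 2.40 on mimic arrays and -0.62 to 0.34 on control arrays, among them Usp18 (2.32), Xaf1 (1.96) and Isg15 (1.76), with adjusted p from 0.000617 to 0.00129. In each of these named genes mimic array 5 was the lowest mimic array. It stood at 3.17 for Usp18, against 4.06 to 4.34 on the other mimic arrays, and at 6.63 for Isg15, against 6.64 to 7.60. The falls of the splicing factors, with a median of -0.45, stand beside these larger medians of the division lists. The part of the division and interferon changes in the splicing factor result was not tested.

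Since members moved together, the letters of their promoters were read. RefSeq promoter windows of build GRCm38.p6, from 250 bases before to 50 after the gene's start, matched by symbol for 45 of 51 members and for 27025 genes in all. Windows were searched on both strands, with overlaps allowed. The ETS-type motif CCGGAAG was in 10 of 16 core snRNP windows (62.5%), 6 of 29 regulator windows (20.7%) and 9.14% of all windows. The GC box GGGCGG was in 56.2% of core, 79.3% of regulator and 35.9% of all windows, and CCAAT in 31.2%, 55.2% and 38.0%. The E2F-type motif TTTCCCGC was in 0 core windows and in 3 regulator windows (10.3%), those of Srsf1, Srsf10 and Hnrnpul1, beside 1.11% of all. The E-box CACGTG was in 6.25% of core, 13.8% of regulator and 7.24% of all windows, the CHR motif TTTGAA in 12.5%, 13.8% and 18.2%, and TATAAA in 12.5%, 13.8% and 14.2%. The 2 classes thus differ in the letters of their windows, with no test made, and a match is a description of the sequence and not a site of binding.

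The 200 bases before the start are printed for a gene with a large fall in each family (Srsf7, Hnrnpa3, Snrpd3 and Sf3a3) and for Sf3a2, the member that rose, to set promoters of members that moved in opposite directions side by side. Capitals mark the motifs named above. They lie at chr17:80207306-80207505 on the minus strand for Srsf7, and on the plus strand at chr2:75659059-75659258 for Hnrnpa3, chr10:75517842-75518041 for Snrpd3, chr4:124714661-124714860 for Sf3a3 and chr10:80798535-80798734 for Sf3a2.
Srsf7: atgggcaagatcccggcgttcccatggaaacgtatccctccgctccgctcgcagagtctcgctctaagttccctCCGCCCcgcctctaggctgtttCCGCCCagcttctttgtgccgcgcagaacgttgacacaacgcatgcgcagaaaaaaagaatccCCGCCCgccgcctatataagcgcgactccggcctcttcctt
Hnrnpa3: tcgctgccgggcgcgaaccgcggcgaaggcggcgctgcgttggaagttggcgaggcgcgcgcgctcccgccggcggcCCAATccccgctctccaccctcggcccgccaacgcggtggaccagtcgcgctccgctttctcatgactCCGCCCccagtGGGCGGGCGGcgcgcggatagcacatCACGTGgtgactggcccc
Snrpd3: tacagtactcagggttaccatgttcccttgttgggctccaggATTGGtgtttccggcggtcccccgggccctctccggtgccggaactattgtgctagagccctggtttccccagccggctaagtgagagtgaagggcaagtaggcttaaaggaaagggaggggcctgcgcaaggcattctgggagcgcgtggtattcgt
Sf3a3: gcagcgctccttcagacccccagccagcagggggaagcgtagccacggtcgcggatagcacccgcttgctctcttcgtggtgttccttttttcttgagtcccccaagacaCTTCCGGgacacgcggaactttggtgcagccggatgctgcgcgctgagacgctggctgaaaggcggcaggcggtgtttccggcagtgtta
Sf3a2: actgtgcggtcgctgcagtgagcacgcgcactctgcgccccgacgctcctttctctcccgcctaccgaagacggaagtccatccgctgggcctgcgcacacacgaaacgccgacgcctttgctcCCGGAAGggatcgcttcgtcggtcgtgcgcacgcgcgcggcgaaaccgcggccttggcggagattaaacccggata
Sf3a3, which fell, and Sf3a2, which rose, both hold the ETS-type letters in this stretch, on opposite strands. Srsf7 shows 3 GC boxes and Hnrnpa3 GC boxes, a CCAAT box and an E-box, while the printed stretch of Snrpd3 shows a CCAAT box. The rest of the searched windows holds a GC box of Snrpd3, the ETS-type letters of Srsf7 and a GC box of Sf3a2. The window of Sf3a3 holds no GC box.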

How the data were processed

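Per the file headers, the authors extracted an intensity for each spot with Agilent Feature Extraction 11.5.1.1; the processed channel used here has background removed within an array but no scaling between arrays. Log2 values stand in the deposited value table, and each of its columns is the scanner's log2 processed signal shifted by a single constant (SD of the shift at most 2.78e-07 over 55249 probes with 1 spot). Its genes were not centred. The submitters' processing notes also name GeneSpring 14.9.1, with no settings.

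From the scanner tables, control and outlier spots were left out, spots of a probe averaged, and each array's 75th percentile of log2 processed signal subtracted. Probes were named by matching their accessions to a RefSeq gene table (GRCm38.p6), which gave 28331 of 55681 probes a symbol, and the rest kept their own names. Probes were tested if well above background on at least 4 of 8 arrays (with several spots, where its spots below that level did not outnumber the others), and a gene was represented by its brightest probe. The 4 mimic arrays were compared with the 4 control arrays in limma 3.58.1 under R 4.3.3 (lmFit, eBayes, two-sided, Benjamini-Hochberg over 17093 features, threshold 0.05), tested on simulated data first. SE is that of the fitted log2 difference. A second limma fit tested the difference between the 2 brightest probes of 2903 genes.

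Every member is named. All 8 values are given, per family, for up to 6 called members with the largest change, the called and the tested member nearest to 0, and for some members that did not pass. Of other lists, up to 4 genes (splicing) or 3 (others) with the smallest p are named, and further ones only where a statement needs them. The single result of 1 marker gene is not reported here. The members and lists were chosen with earlier results of these data known. The alternatives were normexp (on median spot signals in place of the mean signals first planned, offset 50), quantile and median scaling, the deposited table, other filters, other probes per gene, spots, variance models, slide rows and columns, and leaving out arrays.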

Additional observations from a re-analysis of the deposited data

Results flagged for a closer look

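Within each group of 4 arrays, 102 sets of values (the tested members and the medians of both classes, in each group) were checked for an array far from the other 3 by Dixon's ratio at its 95% critical value, which chance exceeds in about 1 of 20 sets, and 6 were found. All were in control arrays. Hnrnph2 was at 1.34 on control array 1, against 1.45 to 1.46 on the other controls. Snrpc was at 3.45 on the same array, against 3.20 to 3.24. Srsf4 was at 2.36 on control array 3, against 2.56 to 2.60. Sf3b3 was at 5.90 on control array 6, against 5.78 to 5.80, and the median of the core snRNP proteins was at 0.06 there, against -0.02 to 0.00. Snrpf was at 4.33 on control array 8, against 4.26 to 4.27. Of these genes, Hnrnph2, Srsf4, Snrpf and Sf3b3 had groups that did not overlap with these values included.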

How the results depend on the processing

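In 23 settings with values for the members, 1127 member values were compared with those reported: 1015 kept direction and side of the threshold, 100 kept direction and lost the call, 3 gained it and 9 changed sign. Names as the files give them found no member. Of the 37 calls, 25 held in all 21 settings other than the 2 single slide rows, and 34 when any 1 array was left out; those of Sf3a2, Sf3b3 and Hnrnpc did not. Outside the single rows, the members lower were 27 to 36. The 27 were found with no filter on dim probes, where 5.48% of all features were called lower, beside 18.3% in the reported setting. No paired analysis was possible because the labels give the groups no shared replicate numbers. The slide column, with 1 mimic and 1 control array each, pairs arrays by position alone, and as a block it left 4008 features, 30 members lower and 0 higher.

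All features called (5851) were 3657 with no filter on dim probes, where more features share the adjustment, 1759 in slide row 1 and 1611 in slide row 2 (2 arrays a group), and 4320 to 5789 with 1 array left out. Members lower (36) were 5 in row 1, 6 in row 2 and 34 to 36 with 1 array left out, beside 14.4% to 18% of all features in the last case. Members higher (1) were 0 with no filter, with the slide column as a block, in row 1 and in row 2, and 0 to 1 with 1 array left out. The core median (-0.38) was -0.33 with normexp, -0.34 with quantile normalization, -0.31 in row 1, -0.41 in row 2, -0.33 without control arrays 3 and 6, and -0.38 to -0.35 with 1 array left out. The regulator median (-0.48) was -0.54 without control arrays 3 and 6 and -0.53 to -0.45 with 1 array left out. Their difference (0.10) was 0.16 with normexp and with quantile normalization, 0.19 in row 1, 0.20 without control arrays 3 and 6, and 0.10 to 0.16 with 1 array left out. Over the settings other than leaving out 1 array it ran from 0.07 to 0.20. Genes with unequal probes (170) were 102 with no filter, 67 with the column as a block, 0 in either row, 82 without control arrays 3 and 6, and 81 to 174 with 1 array left out. Where no construction of the setting shows a cause, the cause was not tested.

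Signs changed as follows. With the second probe Hnrnpul1 was at 0.01, Sf3b4 at 0.03 and Tardbp at 0.03. In row 1 Sf3b2 was at 0.05, Sf3b5 at 0.00 and Kdr at -0.04, and in row 2 Snrpc was at 0.00, Srsf11 at -0.38 and Pecam1 at 0.01. Sf3b5 was at 0.06 without control arrays 3 and 6 and at 0.00 without control array 3. With 1 array left out, Srsf11 was at -0.10 (mimic array 2) to 0.34 (mimic array 7) and Pecam1 at -0.19 (control array 6) to 0.08 (control array 3). Pecam1 was also at 0.06 with normexp, 0.01 without mimic array 4 and 0.00 without control array 8. Of these only Hnrnpul1 and Tardbp had been called. The smallest falls called among members, of Hnrnpc and Sf3b3, were -0.29. The second probe of Hnrnpul1 was well above background on 4 arrays, so its value has little signal behind it.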
